A study of Mus musculus with 2 samples.

Results

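Heat shock proteins and DNAJ cochaperones were followed in mouse embryonic stem cells exposed to ICRF-193, a catalytic inhibitor of DNA topoisomerase II. Members were taken by symbol: Hspa, Hspb, Hspd, Hspe and Hsph followed by a digit, Hsp90, and Dnaja, Dnajb and Dnajc followed by a digit, without the endoplasmic reticulum stress genes Hspa5, Hsp90b1 and Dnajb9. The pattern matched 69 of the 21937 genes listed, and the 63 with a mean level of at least 10 normalised reads are described, out of 14939 genes at or above that level. Hspb9, with a mean of 11.1, lay just inside this limit and Dnajb7, with 4.36, just outside it. Dnajb8, Dnajc5b, Dnajc5g, Hspb3 and Hspb7 were below it too, and Dnajb8 had no reads in any library. Both groups were wild type cells of a 129Sv-C57Bl/6 strain grown without feeder cells. One group received 500 nM ICRF-193 for 16 h and the other DMSO, the vehicle, for the same time. Total RNA from 3 libraries per group was sequenced. Nothing in the labels says that the 3 libraries came from separate cultures, so p-values measure the spread between these libraries, which may be technical.

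Heat shock proteins are molecular chaperones: they hold unfolded proteins, help them fold, or pass them on for degradation. HSP70 proteins do this in cycles of ATP hydrolysis that are started by a J-domain protein (the DNAJ family, in classes A, B and C) and ended by a nucleotide exchange factor such as an HSP110 or BAG protein. HSP90 finishes the folding of kinases and receptors, small heat shock proteins bind unfolding clients without ATP, and the HSPD1 and HSPE1 chaperonin folds proteins in mitochondria. Stress-inducible members are switched on by heat shock factor 1, which binds repeats of the sequence GAA and its reverse complement, while embryonic stem cells express many constitutive members at a high level.

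Levels are given as normalised reads, the reads of a gene over the size factor of its library. The table holds group means, from whose digits the whole reads of each library were worked back; these were found for 62 of the 63 members, Hsp90ab1 being the exception. Libraries are called A, B and C within a group by decreasing size factor, so the letters only name them and pair nothing. Reads on genes with a known combination ran from 27508215 to 44125585 per library. Library A of each group stood apart from the others: 12 fibroblast and feeder markers (11 of them read in every library, none at 0 throughout) summed to 43508 normalised reads in DMSO library A against 6363 and 7534 in B and C, and to 54106 against 10842 and 9907 with ICRF-193. For 7 primitive endoderm markers, all read in every library, the sums with DMSO were 17094 against 3647 and 5094. With ICRF-193 they were 13537 against 4504 and 5559. In DMSO library A, Acta2 (22939) and Col1a1 (12908) gave most of the fibroblast sum, and Lama1 (12951) most of the endoderm sum. Most markers of both lists were higher in that library. Thy1, with 185 against 281 and 311 normalised reads, and Dcn, with 8.76 against 12.9 and 15.1, were lower. Pdgfra is in both lists. The 10 embryonic stem cell markers were read in every library and summed to 144938 to 164208 with DMSO and to 95013 to 115213 with ICRF-193. These sums hid opposite differences between libraries. In DMSO library A, Klf4 (6972 against 3162 and 2285), Esrrb (19652 against 11171 and 8890) and Nanog (1089 against 580 and 438) were higher. Pou5f1 (32259 against 48467 and 47307), Tdgf1 (16586 against 22867 and 24710) and Utf1 (13134 against 21695 and 23256) were lower. The directions were the same in ICRF-193 library A. In such bulk RNA, fewer cells of a type and less RNA per cell cannot be told apart. The labels do not name this split, so results are also given from limma-voom with a term for library A against B and C, called the split term.

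By DESeq in the authors' deposited table, 5 of the 63 members rose and 1 fell with an adjusted p under 0.05. Of the 14939 genes at the same level, 7.18% rose and 1.57% fell in that table. The 5 that rose were Hspa1a, Hspa1b, Hspa2, Hspb2 and Dnajb5, and the 1 that fell was Hspb6. Fold changes in the authors' deposited table were above 1 for 24 members and below 1 for 39, with a median log2 fold change of -0.14, beside -0.05 over all genes at that level. The libraries of the groups did not overlap for 12 members that were higher and 17 that were lower with ICRF-193, of 62, against 18.5% and 18.8% of all genes with known reads. By limma-voom on the worked back reads, 8 of 62 members rose and 7 fell, against 9.75% and 5.93% of the 14992 genes tested. With the split term 15 rose and 28 fell, against 27.1% and 32.6% of genes. The share of members called higher was near the background under each of these rules. The share called lower was near it in the authors' deposited table and above it under the other rules. Scaling to total reads instead of size factors moved the median of all genes in limma-voom from -0.04 to 0.08. The members' median moved from -0.13 to -0.01, and calls became 9 higher and 4 lower, against 12.2% and 2.75% of all genes. With the split term as well they became 21 higher and 16 lower, against 35.2% and 20.7%.

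**Figure D1:**
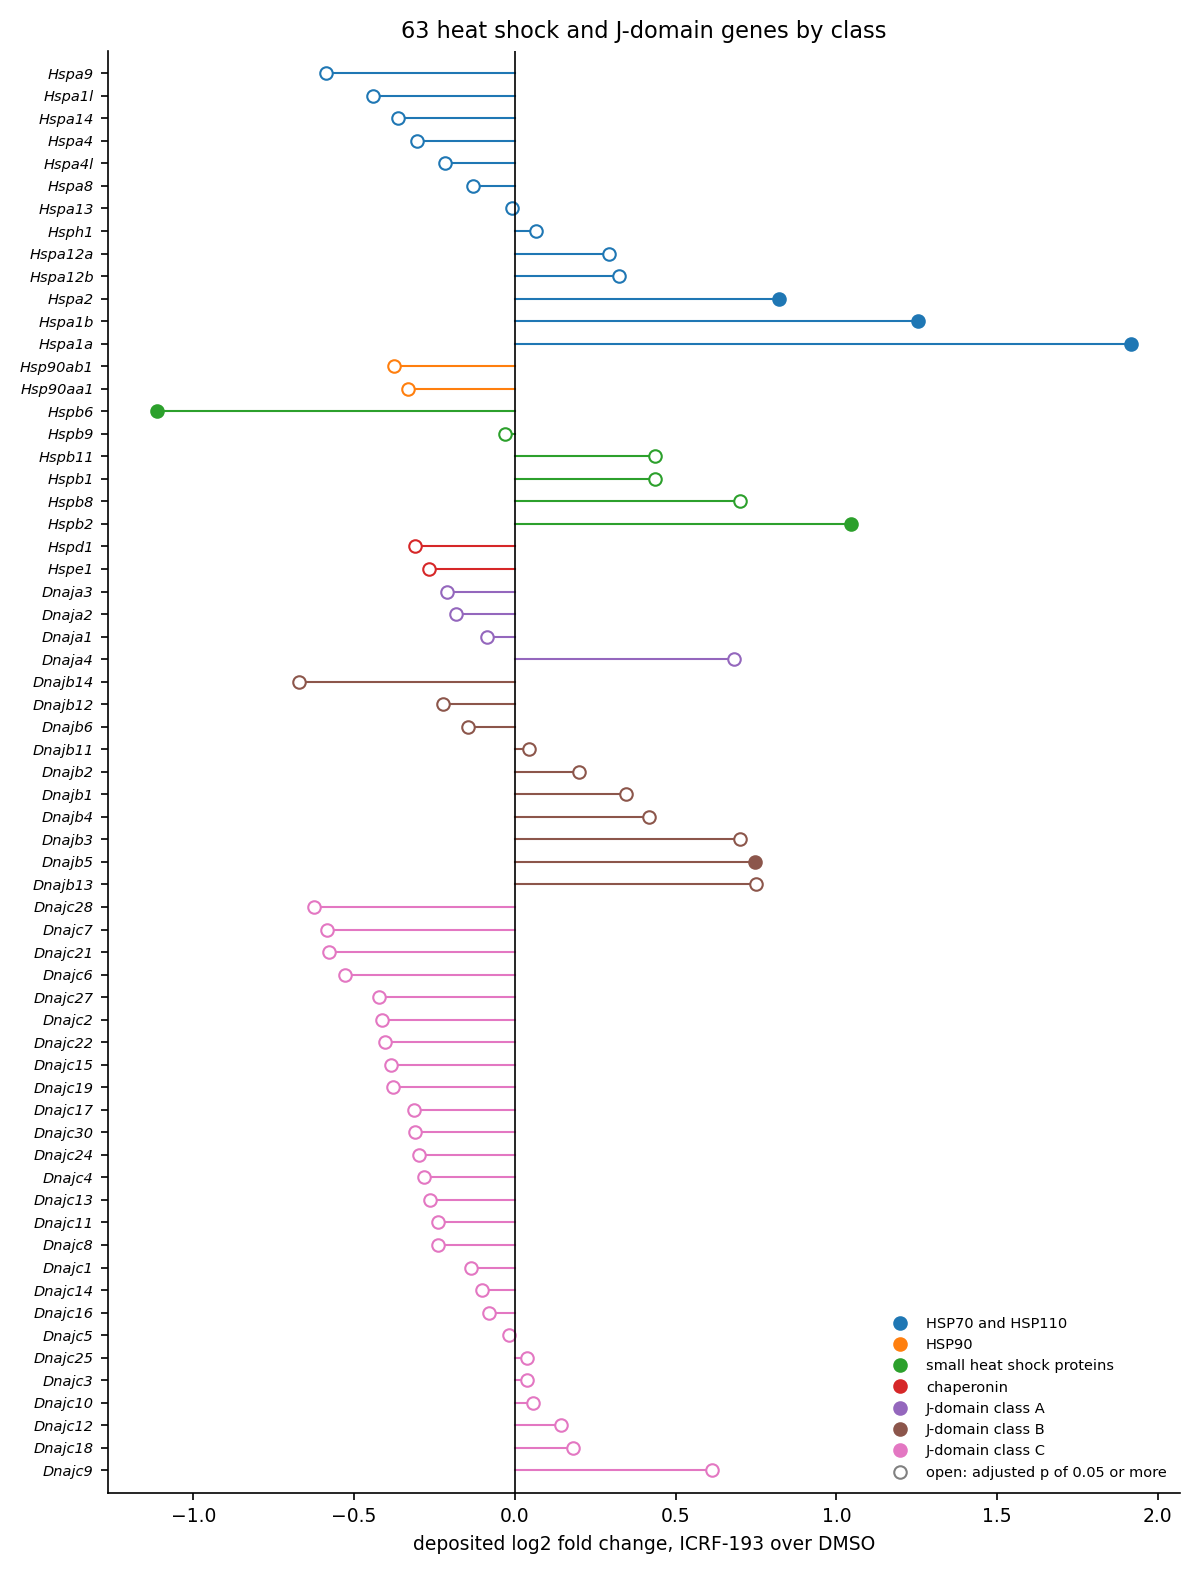
The horizontal axis is the log2 fold change of ICRF-193 over DMSO in the authors' deposited table, 1 line per member, grouped and coloured by class; filled points passed an adjusted p under 0.05 and open points did not. The 6 filled points are Hspa1a, Hspa1b, Hspa2, Hspb2 and Dnajb5 to the right and Hspb6 to the left, and 20 of the 26 class C proteins lie left of 0 (17 of 26 when reads were scaled to library totals in limma-voom).

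The HSP70 and HSP110 class held 3 of the 5 members that rose. Hspa1a and Hspa1b, neighbouring genes for the stress-inducible cytosolic HSP70, showed the largest rises of all members. Hspa1a had 49.4, 43.7 and 60.5 normalised reads in DMSO libraries A, B and C, and 144.5, 223 and 212 with ICRF-193. All 3 treated libraries were above all 3 controls, and treated library A was the lowest of its group. The means were 51.2 ± 8.58 and 193 ± 42.5 (SD, n = 3). In the authors' deposited table this was a 3.78-fold rise, a log2 fold change of 1.92 with a DESeq adjusted p of 1.01e-07.

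Hspa1b had 109, 169 and 202 normalised reads with DMSO and 283, 436.5 and 424 with ICRF-193. The groups again did not overlap, and library A was the lowest in each. The means were 160 ± 47.1 and 381 ± 85.3 (SD, n = 3). The authors' deposited table gives a log2 fold change of 1.25 with a DESeq adjusted p of 0.00105. In limma-voom the adjusted p was 0.0298, and it rose to between 0.058 and 0.116 when library B or C of either group was left out. Hspa1a stayed under 0.05 in all 12 limma-voom fits, with a highest adjusted p of 0.0427.

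These copies are nearly the same in sequence. By the GENCODE M21 annotation, 66.3% of the stretches of 50 bases in Hspa1a transcripts also occur in another gene, and 62.3% of those in Hspa1b, mostly in each other. How reads that match both were counted is not given in the sources used here, so the division of reads between the copies is uncertain. Their sum was 158, 212 and 263 normalised reads with DMSO and 428, 659 and 636 with ICRF-193, which is 2.72-fold higher. The ratio of Hspa1b to Hspa1a was 2.21, 3.86 and 3.34 with DMSO and 1.96, 1.96 and 2 with ICRF-193. Both copies together made up 0.119% to 0.218% of the normalised reads of the 13 genes of this class with DMSO and 0.398% to 0.672% with ICRF-193.

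The stretches of 250 bases before the starts of Hspa1a and Hspa1b are shown because these members rose most. They come from RefSeq, build GRCm38.p6, minus strand of chromosome 17, at chr17:34972157-34972406 and chr17:34959239-34959488, and are written 5′ to 3′ along the gene. The capitals mark a match to GAANNTTC, the core of a heat shock element formed by GAA and its reverse complement; the motif reads the same on both strands.
Hspa1a: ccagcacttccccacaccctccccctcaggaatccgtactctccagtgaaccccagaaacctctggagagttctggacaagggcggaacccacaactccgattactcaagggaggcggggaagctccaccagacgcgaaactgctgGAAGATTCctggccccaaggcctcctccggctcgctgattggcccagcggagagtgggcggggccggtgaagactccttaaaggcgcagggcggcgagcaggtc
Hspa1b: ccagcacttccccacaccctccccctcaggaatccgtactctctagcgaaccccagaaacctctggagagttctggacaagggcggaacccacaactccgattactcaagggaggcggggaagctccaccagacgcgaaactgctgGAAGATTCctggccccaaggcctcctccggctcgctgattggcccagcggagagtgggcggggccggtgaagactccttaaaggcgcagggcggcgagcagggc
In both, the match begins 104 bases before the start. Over windows of 300 bases, which run on to 50 bases after the start, the copies were 98.67% identical and differed at 4 positions. Counted from 1 at the 5′ end of the window, with the base of Hspa1a first, the differences were C44T, T47C, T249G and C276T, and none of them lies in the match.

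Hspa2, an HSP70 gene best known from male germ cells, had 415, 424 and 384 normalised reads with DMSO and 701, 737 and 720.5 with ICRF-193. The groups lay well apart, with library A between the other controls and slightly below the other treated libraries. In the authors' deposited table its log2 fold change was 0.82, with a DESeq adjusted p of 0.0240. It passed in all 12 limma-voom fits. Of 7 germ cell and testis markers only 3 were read in every library and Tnp1 was at 0 throughout; their sum was 1236 to 1625 normalised reads with DMSO and 1287 to 1735 with ICRF-193.

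**Figure D2:**
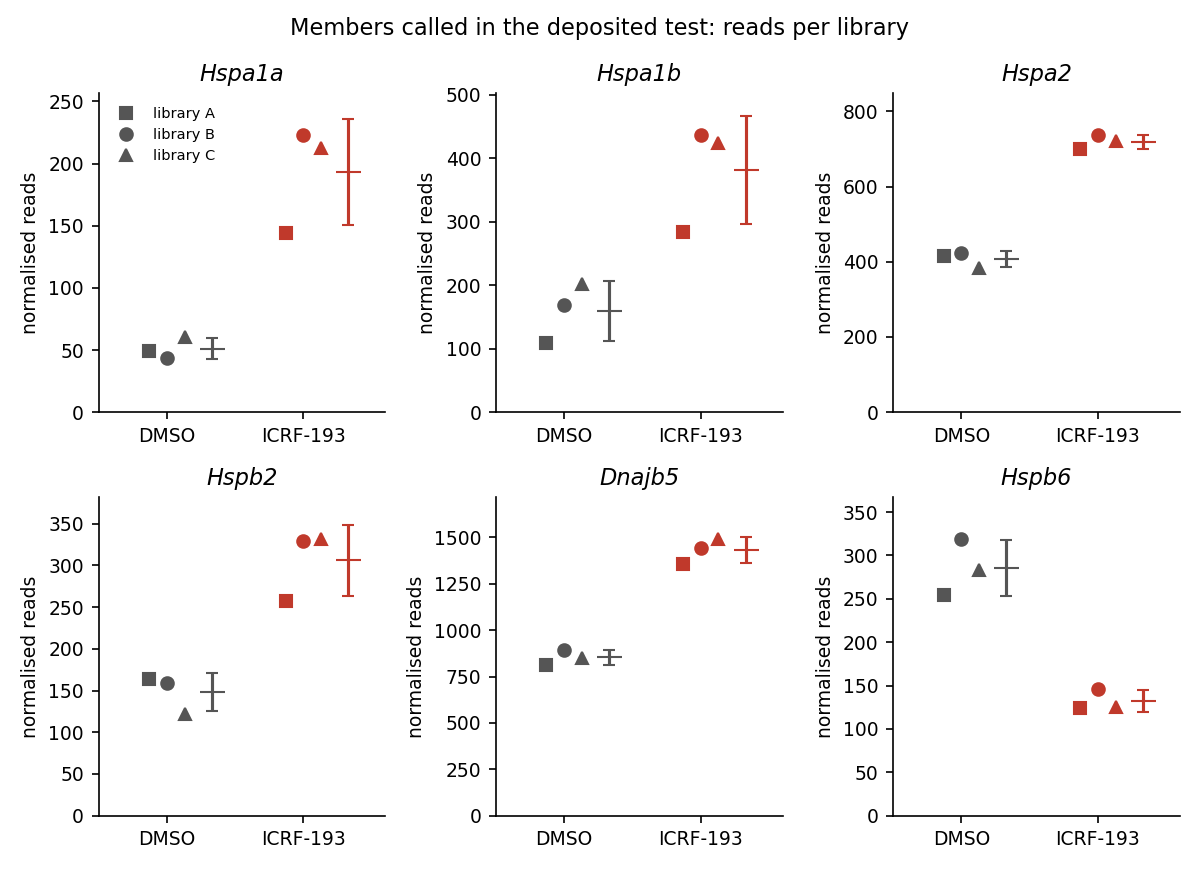
Each panel plots normalised reads (vertical axis, from 0) of 1 member called in the authors' deposited table in the DMSO and ICRF-193 libraries; squares, circles and triangles are libraries A, B and C, and the bar is the mean with 1 SD (n = 3). In every panel the groups do not overlap, with Hspb6 lower and the other 5 genes higher in the treated libraries.

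The other 10 genes of the class did not pass in the authors' deposited table, and the median log2 fold change over all 13 was -0.01, turning to 0.01 in limma-voom with TMM factors and to 0.11 with total reads. Hspa9 (mortalin), the HSP70 of the mitochondrial matrix, had 45532, 41460 and 38655 normalised reads with DMSO and 29970, 26812 and 26796 with ICRF-193. Every treated library lay below every control. Its log2 fold change in the authors' deposited table was -0.59 with a DESeq adjusted p of 0.124, and in limma-voom it fell with an adjusted p of 0.0126, which became 0.0658 to 0.0717 without DMSO library B or ICRF-193 library B or C. Hspa4, an HSP110 nucleotide exchange factor, had 51981, 46450 and 44040 normalised reads with DMSO and 42559, 37035 and 35873 with ICRF-193, again without overlap. The limma-voom adjusted p was 0.102, and 0.000111 with the split term.

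Hspa8, the constitutive cytosolic HSP70, and Hsph1, the heat-inducible HSP110, overlapped between the groups. Hspa8 had 14900, 14672 and 16064 normalised reads with DMSO and 14715, 13411 and 13569 with ICRF-193, a log2 fold change of -0.13 in the authors' deposited table. For Hsph1 the libraries held 11004, 9973 and 10405 normalised reads, then 11043, 11153 and 10663. Its log2 fold change was 0.07 in the authors' deposited table. Neither passed limma-voom with the split term, where the adjusted p was 0.0569 for Hspa8 and 0.243 for Hsph1. Without library A of both groups Hspa8 fell (log2 fold change -0.19, limma-voom adjusted p 0.0254). With the split term and total reads Hsph1 rose by 0.19 on the log2 scale (limma-voom adjusted p 0.00578), and Hspa8 changed by -0.01. Hspa14, which joins the ribosome together with the J-domain protein DNAJC2, had 7113, 8858 and 8609 normalised reads with DMSO and 5608, 6410 and 7073 with ICRF-193. Its groups did not overlap, by a small margin between treated C and control A, and the limma-voom adjusted p was 0.113, and 0.000146 with the split term. The remaining 5 genes, Hspa1l, Hspa4l, Hspa12a, Hspa12b and Hspa13, had log2 fold changes between -0.44 (Hspa1l) and 0.32 (Hspa12b) in the authors' deposited table, all with overlapping groups. The reads of Hspa1l are uncertain. Of its stretches of 50 bases, 71.4% recur in other genes, Hspa1a and Hspa1b among them. Its exons overlap the antisense gene Gm10501 over 71.9% of their length.

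Both HSP90 genes were below a fold of 1 and neither passed in the authors' deposited table, also at an unadjusted p under 0.05. Hsp90aa1, the heat-inducible form, had 35759, 28627 and 25902 normalised reads with DMSO and 28992, 21609 and 21111 with ICRF-193. Treated library A was above the lower control libraries, so the groups overlapped, while within library A and within B and C the treated libraries were lower. Its log2 fold change was -0.33 in the authors' deposited table; the limma-voom adjusted p was 0.233, and 0.000159 with the split term. For Hsp90ab1, the constitutive form, reads per library were not recovered, and the authors' deposited table gives a log2 fold change of -0.37 with a DESeq adjusted p of 0.474. In Hsp90aa1, 58.5% of the stretches of 50 bases recur in other annotated genes, chiefly pseudogenes; the share was 52.7% for Hspa8, 44.8% for Hspd1, 42.8% for Dnajb6 and 28.8% for Dnaja1, so their reads are uncertain in the same way.

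Among the 6 genes placed with the small heat shock proteins by their Hspb symbols, 1 rose and 1 fell in the authors' deposited table. In limma-voom with the split term 4 of them rose, Hspb11 among them, and 1 fell, beside 27.1% and 32.6% of all genes. Hspb2, a muscle-enriched member, had 164, 159 and 122 normalised reads with DMSO and 257, 330 and 332 with ICRF-193. The groups did not overlap, and the difference was smaller within library A (log2 0.65) than within B and C (log2 1.24). The authors' deposited table gives a log2 fold change of 1.05 with a DESeq adjusted p of 0.00527. The limma-voom adjusted p was 0.0165, and 0.0615 to 0.0791 when library B or C of either group was left out. Its exons overlap those of Cryab on the opposite strand over 30.2% of their length. Cryab, itself a small heat shock protein outside the naming pattern and looked up after its values were seen, had 1213, 510 and 616 normalised reads with DMSO and 2211, 1791 and 1383 with ICRF-193. It rose in the authors' deposited table, with a log2 fold change of 1.20 and a DESeq adjusted p of 0.0319. Whether the libraries kept the strand is not given in the sources used here, so reads from the overlap cannot be told apart between these genes.

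Hspb6 (HSP20), which like Hspb2 belongs to the muscle-enriched small heat shock proteins, went the other way. It had 255, 319 and 283 normalised reads with DMSO and 124.5, 146 and 126 with ICRF-193. The highest treated library was far below the lowest control. The means were 286 ± 32.4 and 132 ± 12.2 (SD, n = 3). In the authors' deposited table it fell by 1.11 on the log2 scale with a DESeq adjusted p of 0.00243. In limma-voom the adjusted p was 0.00868, and 0.0504 without ICRF-193 library C. Its exons overlap Lin37 and Proser3 on the opposite strand over 8.79% of their length, and Lin37 had a log2 fold change of -0.09 in the authors' deposited table.

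Hspb8, a partner of the HSP70 exchange factor BAG3, and Hspb1 (HSP25) were higher in every treated library without passing in the authors' deposited table. Hspb8 had 1800, 1945 and 1579 normalised reads with DMSO and 2803, 3056 and 2795 with ICRF-193. Its log2 fold change in the authors' deposited table was 0.70 with a DESeq adjusted p of 0.0572, and it rose in limma-voom with an adjusted p of 0.0111, which became 0.0532 to 0.065 without ICRF-193 library C or B. Hspb1 had 2421, 2314 and 2176 normalised reads, then 3133, 3212 and 3014. The log2 fold change was 0.44 in the authors' deposited table with a DESeq adjusted p of 0.378, and it rose in limma-voom with an adjusted p of 0.0247. This became 0.0516 to 0.117 when any 1 library other than DMSO library A was left out. Of its stretches of 50 bases, 51.6% recur in annotated pseudogenes. Hspb11, a subunit of the transport machinery of cilia despite its name, had 252, 275 and 227 against 306, 364 and 350.1 normalised reads. It passed with the split term (adjusted p 0.00617 in limma-voom) and not without it. Fibroblasts express several small heat shock proteins: of the 11 fibroblast and feeder markers at the level described, none passed and 9 had a fold change above 1 in the authors' deposited table, with a median log2 fold change of 0.32. At an unadjusted p under 0.05 there was 1 higher in that table, limma-voom called none, and the split term called 6 of the 11 higher, beside 27.1% of all genes. The part of such cells in these results was not tested.

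**Figure D3:**
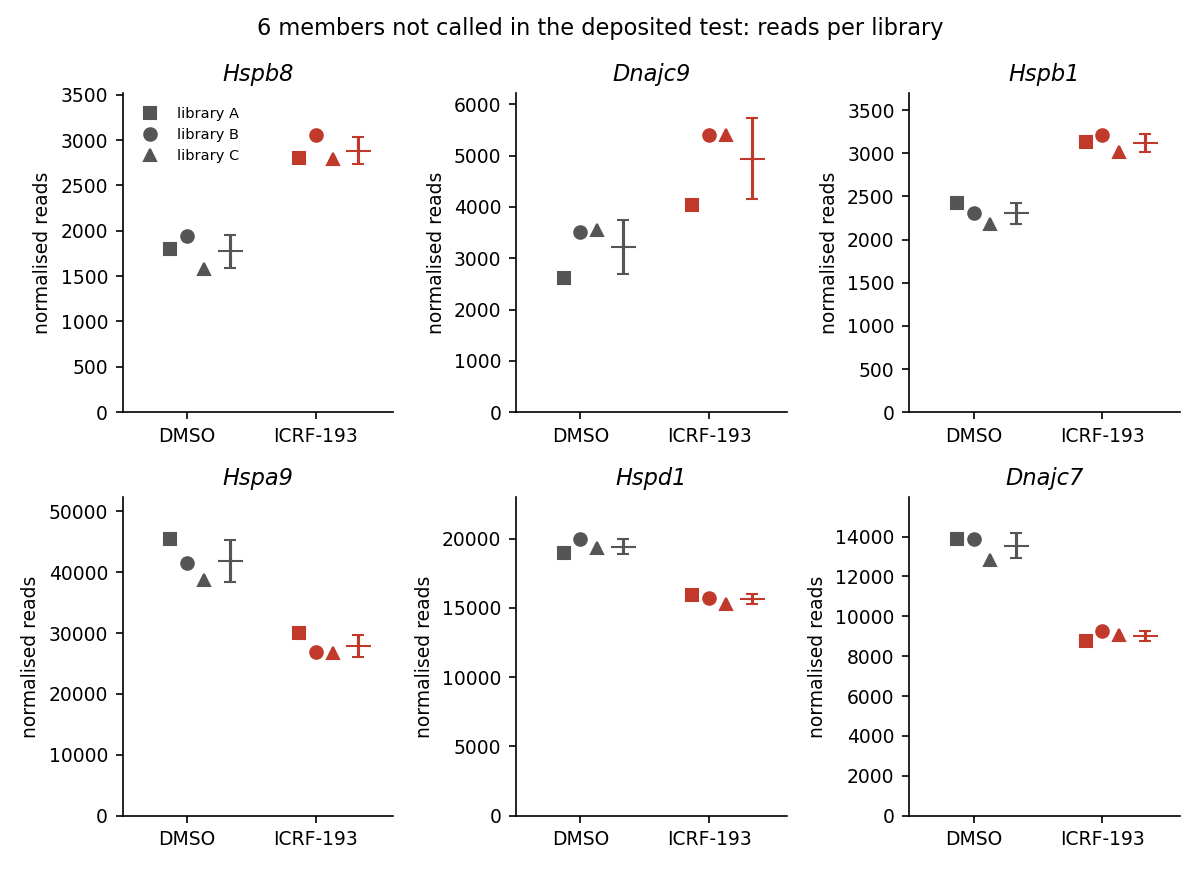
Each panel plots normalised reads (vertical axis, from 0) of 1 of 6 members that did not pass in the authors' deposited table; squares, circles and triangles are libraries A, B and C, and the bar is the mean with 1 SD (n = 3). Hspb8, Dnajc9 and Hspb1 are higher in every treated library than in every control, and Hspa9, Hspd1 and Dnajc7 are lower.

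The mitochondrial chaperonin is built from HSPD1 (HSP60) rings closed by HSPE1 (HSP10) lids. Hspd1 had 18925, 19997 and 19297 normalised reads with DMSO and 15948, 15693 and 15261 with ICRF-193, without overlap. Its log2 fold change was -0.31 in the authors' deposited table with a DESeq adjusted p of 0.609, and it fell in limma-voom with an adjusted p of 0.0374. With total reads the limma-voom log2 fold change was -0.19 and the adjusted p 0.166, and leaving out any 1 library other than DMSO library A gave 0.0627 to 0.159. Hspe1, read from the same region in the opposite direction, had 4750, 7802 and 7631 with DMSO and 4156, 6330 and 6269 with ICRF-193. Library A was low in both groups, so the groups overlapped; the split term gave a log2 fold change of -0.26 with a limma-voom adjusted p of 0.000795. Together with Hspa9, Dnaja3, Dnajc11, Dnajc15, Dnajc19 and Dnajc30 these made up the 8 mitochondrial members, a group put together after the values were seen. All 8 had a fold change below 1, with a median log2 fold change of -0.31 and no call by DESeq in the authors' deposited table, where 1 was lower at an unadjusted p under 0.05. In limma-voom 2 fell, against 5.93% of all genes. All 8 were called lower with the split term, against 32.6%, and with total reads as well 4 of the 8, against 20.7%. The 9 members of the endoplasmic reticulum, grouped in the same way, had a median of -0.01 in the authors' deposited table. This median turned positive with TMM factors or total reads. With the split term 1 was higher and 2 lower, beside 27.1% and 32.6% of all genes. With total reads as well 3 were higher and 1 lower, beside 35.2% and 20.7%. The 10 mitochondrial proteases and chaperones listed beside the members, such as Lonp1 and Trap1, had no call by DESeq, none at an unadjusted p under 0.05 and a median log2 fold change of -0.25 in the authors' deposited table. In limma-voom 2 of the 10 fell, beside 5.93% of all genes, and none with total reads, beside 2.75%. The split term gave 8 that fell, and with total reads as well 5 fell and 1 rose, beside 32.6% and 20.7% of all genes lower.

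J-domain proteins of class A, which like the bacterial DnaJ carry a zinc finger, held no member called by DESeq in the authors' deposited table, and 1 that was higher at an unadjusted p under 0.05. Dnaja4 had 124, 145 and 125 normalised reads with DMSO and 215, 208 and 209 with ICRF-193. The groups did not overlap, and the treated libraries lay close together. Its log2 fold change was 0.68 in the authors' deposited table with a DESeq adjusted p of 0.145, and it rose in limma-voom with an adjusted p of 0.0232, which became 0.0775 to 0.0981 when library B or C of either group was left out. Over 44.1% of their length its exons overlap Wdr61 on the opposite strand, which had 3077, 3929 and 4023 normalised reads with DMSO and 4385, 5364 and 5761 with ICRF-193. Dnaja1, the heat-inducible cytosolic member, had 1955, 2333 and 2336 with DMSO and 1947, 2155 and 2131 with ICRF-193. The groups overlapped, and its log2 fold change of -0.09 in the authors' deposited table turned to 0.04 in limma-voom with total reads. Dnaja2, the most abundant of the class, had 14726, 16615 and 16652 with DMSO and 13865, 13893 and 14537 with ICRF-193. It lay lower in every treated library, with a limma-voom adjusted p of 0.209, and 0.00721 with the split term. With total reads as well, the limma-voom log2 fold change went from -0.18 to -0.06 and the adjusted p to 0.313. Dnaja3, the mitochondrial member, had a log2 fold change of -0.21 in the authors' deposited table.

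Class B held 1 call. Dnajb5, a close relative of the inducible Dnajb1, had 814, 895 and 853 normalised reads with DMSO and 1358, 1442 and 1494 with ICRF-193. The means were 854 ± 40.7 and 1431 ± 68.4 (SD, n = 3), and the gap between the groups was larger than the spread within either. In the authors' deposited table its log2 fold change was 0.75 with a DESeq adjusted p of 0.0384. It passed in all 12 limma-voom fits, with a highest adjusted p of 0.048, and rose by 0.74 on the log2 scale within library A and by 0.75 within B and C. Dnajb1, the main heat-inducible HSP40, had 2265, 2429 and 2519 with DMSO and 2964, 3003 and 3189 with ICRF-193. Every treated library was higher, the log2 fold change was 0.34 in the authors' deposited table with a DESeq adjusted p of 0.534, and the limma-voom adjusted p was 0.0507. It passed in limma-voom with the split term (adjusted p 0.000289), with total reads (0.0307) and with TMM factors (0.0459).

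In all, 7 of the 10 class B genes had a fold change above 1 in the authors' deposited table, and the class median of 0.27 stayed positive under each scaling. Dnajb14, which sits in the membrane of the endoplasmic reticulum, was the lowest of the class, with 334, 268 and 255 normalised reads with DMSO and 258, 136 and 145 with ICRF-193. Treated library A lay between the lower controls, and the log2 ratio was -0.37 within library A and -0.90 within B and C. Its adjusted p was 0.17 by DESeq in the authors' deposited table, and in limma-voom 0.12, then 0.00133 with the split term and 0.000424 without library A of both groups. Dnajb13, a component of motile cilia, and Dnajb3, a testis member, were read at low and uneven levels. Dnajb13 had 43.8, 25.8 and 14.1 normalised reads with DMSO and 80.3, 32.1 and 28.1 with ICRF-193, which overlap. Dnajb11, a cofactor of HSPA5, had 3325, 3802 and 4431 with DMSO and 3531, 4310 and 4083 with ICRF-193 and also overlapped.

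Class C proteins share only the J domain and work in many places, from clathrin coats to the ribosome. By DESeq none of the 26 passed in the authors' deposited table, with 1 higher and 3 lower at an unadjusted p under 0.05; 20 had a fold change below 1, and the median log2 fold change was -0.27. In limma-voom none rose and 4 fell, beside 9.75% and 5.93% of all genes. The 4 were Dnajc7, Dnajc21, Dnajc2 and Dnajc27. With total reads 2 of these fell, beside 2.75% of all genes. With the split term 2 rose and 16 fell, beside 27.1% and 32.6% of all genes. With total reads as well 4 rose and 8 fell, beside 35.2% and 20.7%. Dnajc7, which joins HSP70 and HSP90 through tetratricopeptide repeats, had 13899, 13888 and 12818 normalised reads with DMSO and 8767, 9273 and 9044 with ICRF-193. The groups lay far apart, and the log2 fold change was -0.58 in the authors' deposited table with a DESeq adjusted p of 0.133, beside 0.00784 in limma-voom and 0.052 there without DMSO library B.

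Dnajc21, which acts in maturation of the large ribosomal subunit, had 7063, 7486 and 6646 normalised reads with DMSO and 4889, 4734 and 4585 with ICRF-193. Dnajc2, which binds the ribosome with HSPA14, had 6383, 7130 and 6620, then 4900, 5279 and 4947. For both, every treated library was below every control. Their log2 fold changes were -0.58 and -0.41 in the authors' deposited table, and their limma-voom adjusted p-values were 0.00992 and 0.0269. For Dnajc21 this became 0.0585 to 0.0621 without DMSO library B or ICRF-193 library B or C. For Dnajc2 it became 0.105 with total reads, and 0.0602 to 0.122 when any 1 library other than DMSO library A was left out. Dnajc27, a small GTPase with a J domain, had 1186, 1048 and 1046 with DMSO and 864, 797 and 783 with ICRF-193, without overlap, and fell in limma-voom with an adjusted p of 0.0474. This became 0.105 with total reads, 0.0572 with TMM factors, and 0.0618 to 0.17 when any 1 of the 6 libraries was left out.

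Dnajc9, a chaperone of histones H3 and H4, had the highest fold change of class C. It had 2622, 3510 and 3556 normalised reads with DMSO and 4032, 5402 and 5396 with ICRF-193. Library A was low in both groups, and the log2 ratio was 0.62 within library A and 0.61 within B and C. Its log2 fold change was 0.61 in the authors' deposited table with a DESeq adjusted p of 0.0982; in limma-voom the adjusted p was 0.0613, and 2.55e-06 with the split term. Dnajc28 had 152, 164 and 163 with DMSO and 83.3, 118 and 109 with ICRF-193. The groups did not overlap, with a limma-voom adjusted p of 0.0584, then 0.00262 with the split term and 0.0174 without library A of both groups. Dnajc6 (auxilin), which uncoats clathrin vesicles, had 1353, 853 and 715 with DMSO and 930.5, 589 and 508 with ICRF-193. Library A was high in both groups, so the groups overlapped, while the log2 ratio was -0.54 within library A and -0.52 within B and C. The other 19 class C members had log2 fold changes between -0.40 (Dnajc22) and 0.18 (Dnajc18) in the authors' deposited table. Dnajc13, an endosomal member, shows how far library A could stand apart, with 11783, 6516 and 6115 normalised reads with DMSO and 9478, 5622 and 5225 with ICRF-193.

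Across the 62 members with known reads, the median log2 ratio of ICRF-193 over DMSO was -0.13 within library A and -0.13 within B and C. No member passed a test of the difference between these changes in limma-voom, where the lowest adjusted p was 0.594; at an unadjusted p under 0.05 there were 3, namely Dnajb14, Hspb2 and Dnajb12, and over all 14992 genes there were 1154 and no call. Hspb9, a testis member with 6.02 to 14.5 normalised reads per library, was lower with ICRF-193 within library A and higher within B and C. Library A over the mean of B and C had a median log2 ratio near 0 among members (0.00122 with DMSO and -0.06 with ICRF-193), with Dnajb13 highest in both groups at 1.14 and 1.42.

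**Figure D4:**
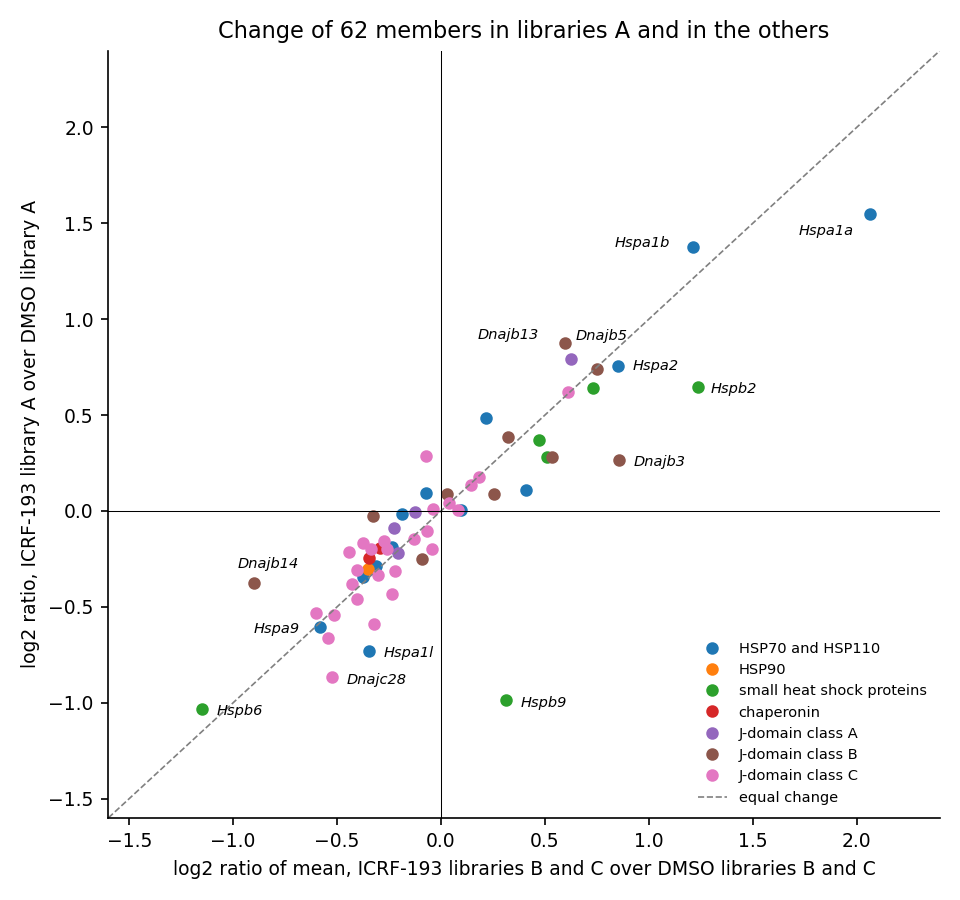
Each point is 1 of 62 members, coloured by class; the horizontal axis is the log2 ratio of the means of libraries B and C, ICRF-193 over DMSO, the vertical axis is the log2 ratio of library A, and the dashed line marks equal change. Hspa1a, Hspa1b, Hspa2, Hspb2 and Dnajb5 lie at the upper right and Hspb6 at the lower left, and Hspb9, read at about 11 normalised reads, lies far off the line.

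Levels were compared between genes as the group mean of normalised reads per kilobase of exon, with exon lengths from GENCODE M21. On this scale Hsp90ab1 stood alone at 88859 with DMSO and 68525 with ICRF-193. Hspa9 followed with 9717 and 6464, Hspa4 with 8591 and 6963, Hsp90aa1 with 7656 and 6081, and Hspd1 with 7345 and 5917. Of the 63 members, 17 had a DMSO level from 1000 to 10000 per kilobase, 28 from 100 to 1000 and 17 below 100. Hspa1a and Hspa1b were not among the abundant members: Hspa1a went from 17.2 to 65.1 per kilobase and Hspa1b from 57.1 to 136, while the constitutive Hspa8 stood at 3537 and 3231.

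**Figure D5:**
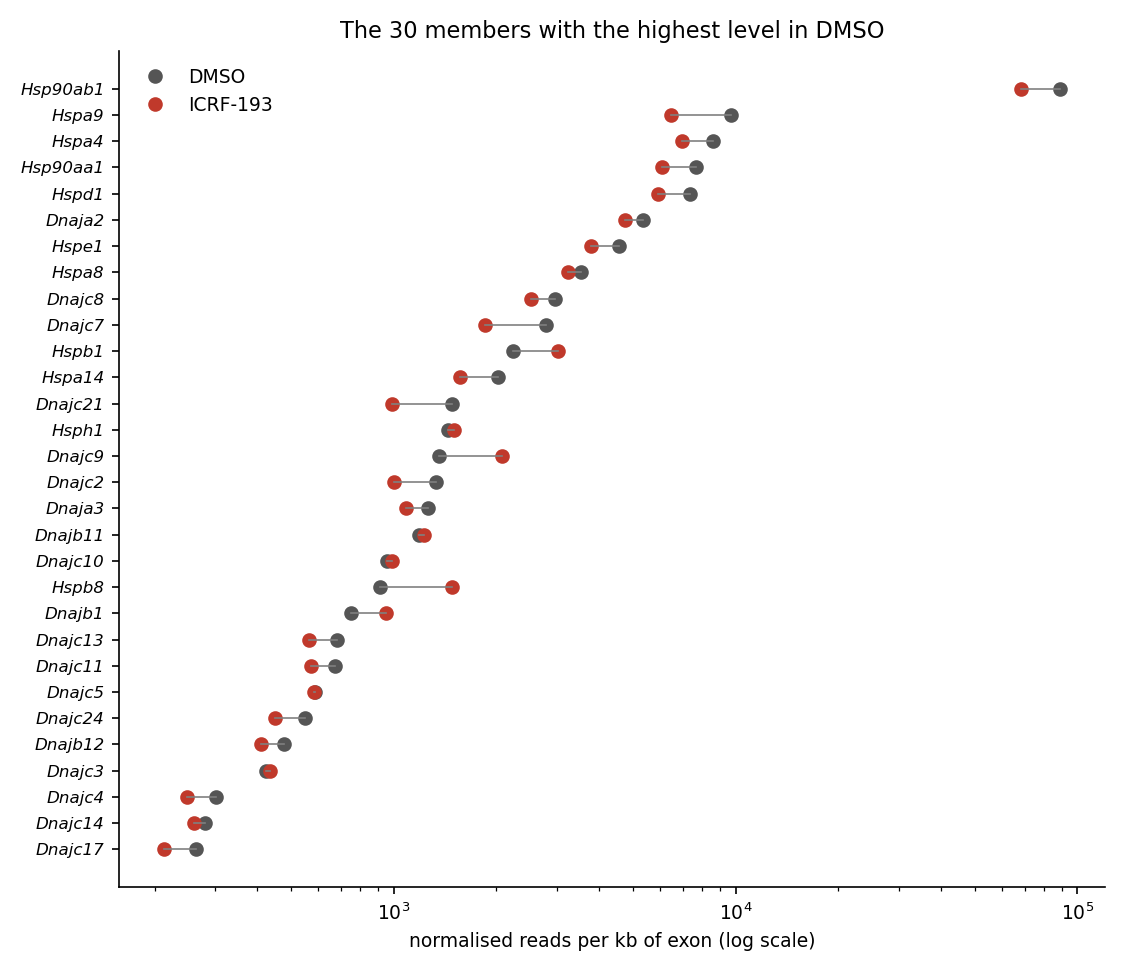
The 30 members with the highest DMSO level are ordered from top to bottom, with normalised reads per kilobase of exon on a logarithmic horizontal axis, grey for DMSO and red for ICRF-193 group means, joined by a line. Hsp90ab1 is far to the right, and the treated point lies to the right of the control for Hspb1, Hspb8, Dnajb1 and Dnajc9, slightly to the right for Hsph1, Dnajb11, Dnajc10 and Dnajc3, and to the left for the others.

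The heat shock element core GAANNTTC was looked for in RefSeq windows (GRCm38.p6) of 300 bases, from 250 before to 50 after each start; the motif is its own reverse complement, so 1 search covers both strands. It was found in 7.86% of 32851 windows, and in 9.04% of 27025 genes when any window of the gene counted. Of the members listed, 55 had a window and 14 of them, or 25.5%, had a match: Dnaja1, Dnaja4, Dnajb6, Dnajc27, Dnajc5g, Hspa1a, Hspa1b, Hspb1, Hspb3, Hspb6, Hspb8, Hspd1, Hspe1 and Hsph1. Among members described, the 12 with a match held 2 of the rises and the 1 fall in the authors' deposited table, with a median log2 fold change of -0.01. The 38 without a match held 2 rises and no fall, with a median of -0.16 in the authors' deposited table. For 13 members, Hspb2, both HSP90 genes, Hspa8 and Hspa9 among them, no window was matched by symbol.

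Stretches around the matches of Hspb1, Dnaja4 and Hspb6 are shown because Hspb1 and Dnaja4 were higher in every treated library and Hspb6 is the member that fell. They lie before the start on the plus strand, at chr5:135887782-135887849, chr9:54699449-54699534 and chr7:30553161-30553208 in GRCm38.p6, from RefSeq, and capitals mark the matches.
Hspb1: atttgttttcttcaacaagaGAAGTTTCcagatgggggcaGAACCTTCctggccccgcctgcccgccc
Dnaja4: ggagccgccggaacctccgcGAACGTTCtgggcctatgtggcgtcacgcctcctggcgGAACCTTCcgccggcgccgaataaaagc
Hspb6: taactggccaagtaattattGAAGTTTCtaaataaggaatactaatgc
The matches begin 117 and 97 bases before the start of Hspb1, 90 and 52 before that of Dnaja4, and 120 before that of Hspb6. Dnaja4 and Hspb6 each had another window, at a different start, without a match. A match is a description of the letters and says nothing of binding. Genes on both sides of the comparison carried one.

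Around the members, 72 further genes of the folding pathways were read at the level described. Of these, 4 rose and 1 fell in the authors' deposited table, beside 7.18% and 1.57% of all genes at that level. The median log2 fold change of the 72 was -0.26, with 59 of them below a fold of 1 in the authors' deposited table. In limma-voom with total reads 53 of the 72 were below it. In limma-voom 3 rose and 13 fell, beside 9.75% and 5.93% of all genes. Scaled to total reads, 3 rose and 5 fell, beside 12.2% and 2.75%. With the split term 7 rose and 51 fell, beside 27.1% and 32.6% of all genes, and with total reads as well 11 rose and 36 fell, beside 35.2% and 20.7%. The genes that rose were Hsf4, Hsf5, Unc45b and Pdrg1, and the one that fell was Hsf2bp.

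Of 7 heat shock factors and their binding proteins, 2 rose and 1 fell in the authors' deposited table, beside 7.18% and 1.57% of genes. Hsf1, the factor that drives the heat shock response, had 2245, 2319 and 2435 normalised reads with DMSO and 2113, 2472 and 2212 with ICRF-193. The groups overlapped, with a log2 fold change of -0.04 in the authors' deposited table, which measures its transcript and not its activity. Hsf2 had 2896, 3299 and 3224, then 2297, 2498 and 2701, with every treated library lower and a limma-voom adjusted p of 0.086. Hsf4, known from the lens, had 71.6, 92.3 and 104 with DMSO and 141.5, 230.2 and 182 with ICRF-193, and its log2 fold change was 1.05 in the authors' deposited table with a DESeq adjusted p of 0.00724. Hsf5, known from testis, had 58.1, 73.4 and 65.9, then 120.5, 142 and 122, and rose by 0.96 on the log2 scale in the authors' deposited table. Hsf2bp, a protein that binds HSF2 and acts in meiotic recombination, had 2171, 2232 and 1989 with DMSO and 1310, 1225 and 1215 with ICRF-193. It fell by 0.77 on the log2 scale in the authors' deposited table with a DESeq adjusted p of 0.0274. For Hsf4, Hsf5 and Hsf2bp the groups did not overlap. Among all genes with known reads, 18.5% lay higher and 18.8% lower without overlap.

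None of the 12 HSP70 partner factors passed by DESeq in the authors' deposited table, also at an unadjusted p under 0.05, nor in limma-voom; with the split term 1 rose and 6 fell, beside 27.1% and 32.6% of all genes. In the same authors' deposited table their median log2 fold change was -0.13, with 6 of 12 below 0 in limma-voom with total reads in place of 9. Among 26 HSP90 cochaperones 1 passed. Unc45b, a myosin chaperone of muscle, had 95.5, 284 and 321 normalised reads with DMSO and 444, 989 and 894 with ICRF-193. Library A was the lowest in both groups, and the log2 fold change was 1.73 in the authors' deposited table with a DESeq adjusted p of 0.0187, beside 0.0594 in limma-voom. The other cochaperones went mostly the other way: 22 of the 26 had a fold change below 1 in the authors' deposited table, and 21 fell with the split term, beside 32.6% of all genes, or 13 with total reads as well, beside 20.7%. Fkbp5, an immunophilin, had 9142, 7507 and 6480, then 5414, 4482 and 4610 normalised reads, and fell in limma-voom with an adjusted p of 0.0326, which became 0.113 to 0.131 without DMSO library B or ICRF-193 library B or C. Cacybp had 13929, 19182 and 17180 with DMSO and 9923, 11322 and 11263 with ICRF-193, and fell in limma-voom with an adjusted p of 0.0307. This became 0.0853 with total reads, and 0.0696 to 0.109 when any 1 library other than DMSO library A was left out.

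The TRiC chaperonin, which folds actin and tubulin in the cytosol, was lower in all its genes, though by DESeq none of the 9 passed in the authors' deposited table and 3 were lower at an unadjusted p under 0.05. All 9 had a fold change below 1 under each scaling, with a median log2 fold change of -0.42 in the authors' deposited table. For 8 of them the treated libraries lay lower without overlap, beside 18.8% of all genes with known reads. In limma-voom 5 fell, beside 5.93% of all genes, or 2 with total reads, beside 2.75%. Adding the split term, 8 fell, beside 32.6% of all genes, the exception being Cct6b, which was read at about 20 normalised reads. Tcp1, for example, had 31655, 32908 and 33080 normalised reads with DMSO and 23164, 23161 and 23514 with ICRF-193. Among 8 genes of prefoldin, which hands clients to TRiC, and of prefoldin-like proteins (Uxt and Pdrg1), 1 was called in the authors' deposited table. This was Pdrg1, a prefoldin-like gene named for its regulation by p53 and DNA damage. Pdrg1 had 708, 886 and 901 with DMSO and 1292, 2167 and 2295 with ICRF-193, and its log2 fold change was 1.21 in the authors' deposited table with a DESeq adjusted p of 0.0101. The 7 other genes of this set had a fold change below 1 in the authors' deposited table. None of the 3 genes left out by the naming rule passed by DESeq, also at an unadjusted p under 0.05. In limma-voom Hspa5 and Dnajb9 did not pass, and Hsp90b1 was not tested because its reads per library were not recovered. Hspa5, the HSP70 of the endoplasmic reticulum, had 26442, 26148 and 33852 normalised reads with DMSO and 32059, 35963 and 34397 with ICRF-193, and rose in limma-voom with the split term with an adjusted p of 0.015.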

How the data were processed

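RNA of 3 libraries per group was sequenced. Per the submitters' processing notes, TopHat, HTSeq and DESeq were used with mouse build mm9; versions, annotation, strand setting and the rule for reads matching several genes are not given in the sources used here. Per the file headers, the deposited table gives per gene a normalised signal (mean of reads over size factor, per group), a fold change ratio, its log2, and a p-value before and after adjustment. From the 15 digits of the deposited means, whole reads per library were worked back. Of 18759 genes with reads, 99.06% had a single combination and 141 were settled at a posterior of at least 0.99, Hsp90aa1, Hspa4 and Hspa9 among them. Size factors recomputed from the reads differed by at most 0.0367%. For the genes settled by a posterior, the choice drew on the ratios between libraries seen in genes with a single combination. The recovery and the fits were tested on simulated data. The genes simulated for the recovery did not reach the level of Hspa4. Genes with at least 10 reads in 3 libraries entered limma-voom (limma 3.58.1, R 4.3.3), with Benjamini-Hochberg adjustment over all genes tested. Alternatives were the split term, total reads or TMM factors as scaling, leaving out libraries, pseudocounts of 1 and 10, and other minimums. The planned edgeR test applied only to deposited counts and was not run.

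The members and lists were chosen with earlier results of these data known. Values per library are given for every member called in the deposited table, the 5 largest rises and falls in it with a mean of at least 50, the most abundant member of each class, the heat-inducible members with their constitutive counterparts, and up to 8 with the lowest adjusted p with the split term. Others were looked up after their values were seen: Cryab, Lin37, Wdr61, Dnajb13, Dnajc13, Hspb11, Hspb9, Tcp1 and Hspa5. Bag6 was listed and not analysed here. Pfdn6 was listed too, and was read under its older symbol, H2-Ke2, among the prefoldin genes.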

Additional observations from a re-analysis of the deposited data

How the results depend on the processing

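With 5 members called higher and 1 lower in the authors' deposited table, limma-voom on the worked back reads called 8 and 7. With the split term it called 15 and 28, with total reads 9 and 4, with TMM factors 9 and 6, and without library A of both groups 14 and 26. With TMM factors, 1511 of all 14992 genes tested were called higher and 736 lower. The split term with total reads, an alternative chosen after seeing the data, called 21 and 16. Leaving out 1 library at a time gave 3 to 8 higher and 1 to 7 lower. At an adjusted p under 0.1 the deposited test called 7 and 1. No share over all genes is given for that threshold or for fits that leave out libraries. Their counts therefore cannot be set against the background. The median log2 fold change of -0.14 became -0.0130 with total reads and -0.0116 with the split term as well, and ran from -0.155 to -0.0682 with 1 library left out; the shift with total reads follows that of all genes. Dnajb11 turned to -0.0509 without DMSO library A and to -0.00835 without ICRF-193 library B, within a range up to 0.157 over such fits, and Dnaja1 to 0.0413 with total reads and to 0.0365 with the split term as well. The cause of these changes was not tested. Over 30 members and 348 comparisons with a test, 228 kept their direction and side of the threshold, 107 newly passed it, 9 no longer passed and 4 changed direction. In the 60 comparisons with a pseudocount, which have no test, all kept their direction. No paired analysis was possible because the table carries no replicate number for any library. Depth limited Hspb9, which had few reads in each library, and the reads of Hsp90ab1 were too many to be worked back.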
